A study of Mus musculus with 8 samples.

Results

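The 3 Fam20 genes of the mouse, Fam20a, Fam20b and Fam20c, were followed in spleen neutrophils of Cxcr2-/- and WT mice, as 3 of the 55414 genes listed in the count files. Fam20c was chosen because its RNA rose strongly between these same groups, so its values are a description and carry no test. Fam20a and Fam20b were included as its paralogs. All 3 passed the filter on low counts, which left 16778 genes. The mice were 10 weeks old, on the FVB background and kept in a specific and opportunistic pathogen free facility. Of the 8 mice, 4 were WT and 4 carried the Cxcr2-/- genotype, a germline loss of the chemokine receptor Cxcr2 that is not limited to neutrophils, bred into FVB from Jackson Laboratory animals. Spleen cells were first enriched for CD11b and then sorted as CD45+ CD11b+ Ly6G+ F4/80-, and 1 RNA library was made per mouse. The comparison asks how neutrophil RNA differs when Cxcr2 is missing.

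Fam20 proteins work inside the secretory pathway, where proteins are modified on their way out of the cell. Fam20C is the Golgi kinase that phosphorylates serines in S-x-E motifs of many secreted proteins, among them casein, bone matrix and enamel proteins. Fam20A is a pseudokinase that binds Fam20C and raises its activity, and its loss in people causes enamel defects with kidney calcification. Fam20B does not phosphorylate proteins: it phosphorylates xylose in the sugar linker that joins glycosaminoglycan chains to proteoglycans, a step that promotes further growth of the chain. Neutrophils store the proteoglycan serglycin, whose chains hold granule proteins.

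The files held 34220182 to 46233555 counts on genes per library, and expression is given as CPM, in which each gene's count was divided by the library size after TMM normalization. Differences between groups are Cxcr2-/- over WT on the log2 scale. By edgeR with Benjamini-Hochberg adjustment, 44.7% of the tested genes had an adjusted p under 0.05, and 31.3% also reached 1.5-fold. Cxcr2, the targeted gene, was at 1719 to 2252 CPM in WT and at 12.9 to 20.7 CPM in Cxcr2-/- libraries. The summed CPM of 9 neutrophil markers was 32421 to 46433 in WT and 70979 to 86672 in Cxcr2-/- libraries, with 7 higher and 1 lower. That sum is carried by S100a8 and S100a9. The lower one was Csf3r, at 6504 to 7470 CPM in WT and 3164 to 3513 CPM in Cxcr2-/- libraries. Itgam did not pass (adjusted p = 0.173 by edgeR). The 13 markers of immature neutrophils summed to 19811 to 23862 CPM in WT and 45593 to 64690 CPM in Cxcr2-/- libraries, and 13 of 13 were higher with an adjusted p under 0.05. Monocyte and macrophage markers summed to 698 to 812 CPM in WT and 838 to 934 CPM in Cxcr2-/- libraries, with 2 of 10 higher and 2 lower. The higher sum came from Ly6c2, at 194 to 270 CPM in WT and 573 to 663 CPM in Cxcr2-/- libraries. Which cells carried it was not tested. The other 9 summed to 444 to 542 CPM in WT and 205 to 300.5 CPM in Cxcr2-/- libraries, most of it Csf1r. Csf1r and Adgre1 were lower, and Mertk was higher, at 0.983 to 2.49 and 2.88 to 4.55 CPM. B cell markers summed to 59.3 to 132 and 26.5 to 58.2 CPM in the same order. Platelet and megakaryocyte markers summed to 5.92 to 7.94 and 4.07 to 6.62 CPM, with Pf4 alone under 0.1 CPM. Stromal and endothelial markers summed to 12.6 to 14.3 and 16.7 to 19.6 CPM, with Col3a1 alone under 0.1 CPM. Most of that sum was Pecam1, which was higher, at 8.60 to 11.7 and 15.0 to 16.9 CPM (adjusted p = 0.000949 by edgeR). The part of these marker differences in the results was not tested, and in bulk RNA fewer cells of a type and less RNA per cell cannot be told apart.

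Fam20c, the secretory protein kinase, went from a low to a clearly expressed gene. The gene, ENSMUSG00000025854, occupies bases 138754514 to 138810077 of chromosome 5 (GRCm38), on the plus strand. In WT mice 1 to 4 it was at 5.77, 4.10, 5.26 and 5.26 CPM, from 182 to 261 counts per library. In Cxcr2-/- mice 1 to 4 it was at 104, 69.3, 89.6 and 62.7 CPM, from 2505 to 4115 counts. The lowest Cxcr2-/- library was thus far above the highest WT library, and the spread within Cxcr2-/- mice was wider than within WT mice.

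Fam20c averaged 5.10 ± 0.708 CPM in the WT and 81.4 ± 18.9 CPM in the Cxcr2-/- group (SD, n = 4 each), a coefficient of variation of 13.9% and 23.3%. The log2 difference was 4.0 with a standard error of 0.18, the rank 16 among the rises of 16778 genes. Among all genes, 15.7% were called higher at an adjusted p under 0.05 and at least 1.5-fold, but this was the contrast that chose Fam20c and nothing is read from its place in it. Within the Cxcr2-/- group, mouse 1 had the highest Fam20c and also the highest sum of immature neutrophil markers, 64690 CPM, and mouse 4 had the lowest of both, with 45593 CPM. That sum is carried by abundant genes such as Ltf, a protein of secondary granules, at 26104, 21782, 18959 and 17392 CPM in Cxcr2-/- mice 1 to 4. Mpo, the myeloperoxidase of primary granules, ran the other way, at 19.1, 20.2, 81.2 and 145.8 CPM in the same mice. Of the 13 markers, 5 were highest in mouse 1, where Fam20c was highest, and 6 in mouse 4, where it was lowest. Whether the cell composition has a part in the Fam20c level was not tested.

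Fam20b, the xylose kinase of the proteoglycan linker, rose by a small amount. The gene, ENSMUSG00000033557, is on chromosome 1 from 156678532 to 156719086, on the minus strand, 82.5 Mb from Cxcr2 on the same chromosome. In WT mice 1 to 4 it was at 25.0, 24.8, 26.9 and 27.4 CPM, and in Cxcr2-/- mice 1 to 4 at 32.2, 36.3, 30.6 and 32.7 CPM. The groups did not overlap, which was true of 41.6% of all genes tested. The means were 26.0 ± 1.33 and 32.9 ± 2.40 CPM, and the log2 difference was 0.34 (1.27-fold, standard error 0.09, adjusted p = 0.00839 in edgeR). The rise stayed under the 1.5-fold limit. With upper-quartile scaling, which moved the median gene by -0.12 on the log2 scale, the change was 0.22 and the adjusted p of the same edgeR test was 0.0635. A transcript on the opposite strand, Gm19918, overlaps exons of Fam20b and had 0 counts in all 8 libraries.

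Fam20a, the pseudokinase partner of Fam20C, had the lowest CPM of the 3, without regard to exon length, and did not pass the test. The gene, ENSMUSG00000020614, is on chromosome 11 from 109669749 to 109722279, on the minus strand. In WT mice 1 to 4 it was at 1.77, 2.51, 2.70 and 3.15 CPM, and in Cxcr2-/- mice 1 to 4 at 2.12, 1.80, 1.96 and 1.73 CPM, from 65 to 125 counts in all 8 libraries. The groups overlapped because WT mouse 1 lay inside the Cxcr2-/- range. The means were 2.53 ± 0.576 and 1.90 ± 0.177 CPM, with a log2 difference of -0.41 (standard error 0.22, adjusted p = 0.149 by the same edgeR test) and an interval of 2 standard errors on either side from -0.85 to 0.03. This interval holds no rise as large as that seen for Fam20b, and it includes a fall of more than 1.5-fold. WT mouse 1 also stood apart from the other WT libraries in its share of reads on no gene, 31.4% against 40.0 to 41.5%. The Cxcr2-/- libraries had 26.7 to 31.9%. Without WT mouse 1 the log2 difference of Fam20a was -0.55 and the adjusted p was 0.0504 by edgeR, the lowest with any library left out. The highest was 0.362 by edgeR, without WT mouse 4, where the log2 difference was -0.29.

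**Figure D1:**
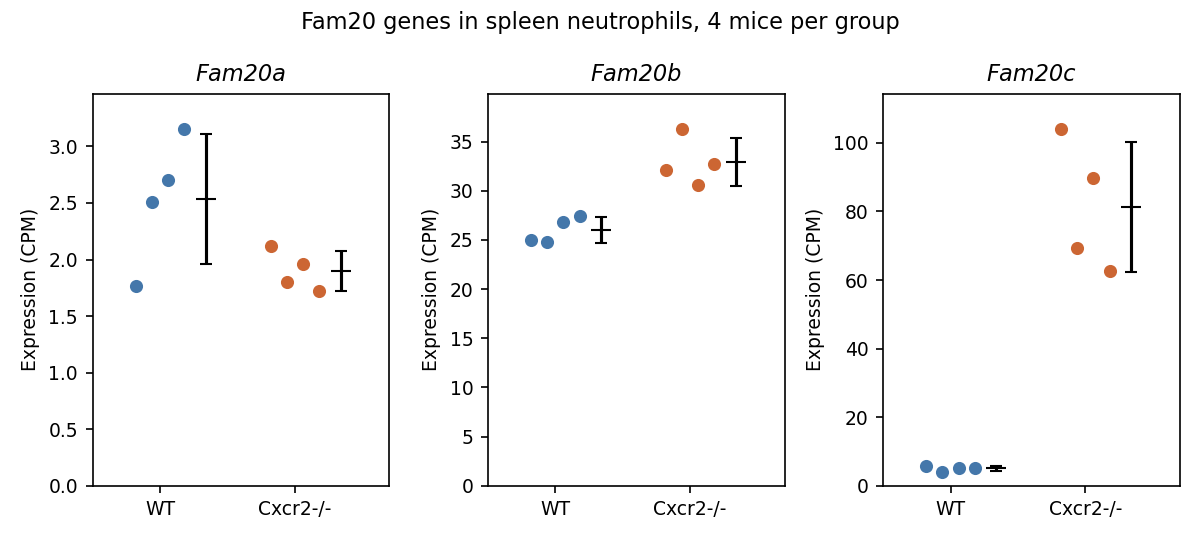
Expression of Fam20a, Fam20b and Fam20c in CPM on linear axes from 0, which differ between panels, with 1 point per mouse (blue WT, orange Cxcr2-/-) and the mean ± SD of 4 mice beside each group. Fam20c lies between 62.7 and 104 CPM in Cxcr2-/- mice and between 4.10 and 5.77 CPM in WT mice, Fam20b separates by a narrow gap, and Fam20a overlaps.

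Levels of the 3 genes were set side by side per length, as CPM per kb of exon, using 3634, 8770 and 6590 bases of joined exons for Fam20a, Fam20b and Fam20c. In WT neutrophils the order was Fam20b, with 2.97 ± 0.152 CPM per kb, then Fam20c with 0.774 ± 0.107 and Fam20a with 0.697 ± 0.159. Fam20c and Fam20a did not differ beyond their spread there: the ratio of Fam20c to Fam20a was 0.900 to 1.80 over the 4 WT mice, with a median of 0.998. In Cxcr2-/- neutrophils the order was Fam20c, with 12.4 ± 2.88 CPM per kb, then Fam20b with 3.76 ± 0.273 and Fam20a with 0.523 ± 0.0487. No neighbours overlapped in that order.

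Fam20b had the largest share of the 3 genes in WT, and Fam20c in Cxcr2-/- mice. Because Fam20c was chosen for its rise, its larger share and the smaller shares of the others are partly built in by that choice. The share of Fam20b fell although its own level went from 2.97 to 3.76 CPM per kb. Fam20b made up 66.9 ± 1.33% of the summed per-length level of the 3 genes in WT and 23.1 ± 4.78% in Cxcr2-/- mice. Fam20c made up 17.5 ± 2.44% in WT and 73.7 ± 5.0% in Cxcr2-/- mice, and Fam20a 15.6 ± 2.82% and 3.18 ± 0.240%. The kinase stood at 20.02 to 27.0 times its partner Fam20a in Cxcr2-/- mice, and at 2.54 to 4.31 times Fam20b, against 0.220 to 0.308 times in WT. The ratio of Fam20b to Fam20a, which does not involve Fam20c, was 3.61 to 5.85 in WT and 6.27 to 8.36 in Cxcr2-/- mice, without overlap. How often the ratio of other gene pairs separates the groups was not computed. The summed level of the 3 genes was 4.14 to 4.80 CPM per kb in WT and 13.7 to 20.04 in Cxcr2-/- mice. With the longest transcript as the length, Fam20c made up 17.4% and 73.0% of the sum.

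**Figure D2:**
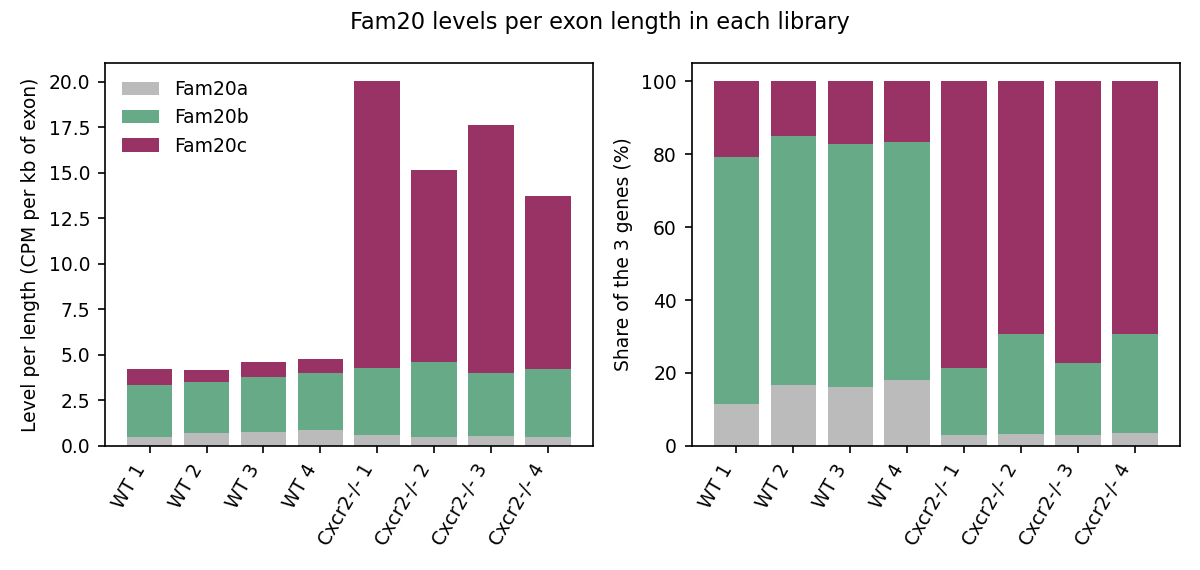
Stacked levels of the 3 genes in each library, as CPM per kb of exon on the left and as percent of their sum on the right, both from 0. The total rises from 4.14 to 4.80 in WT to 13.7 to 20.04 CPM per kb in Cxcr2-/- mice, and the Fam20c segment accounts for most of each Cxcr2-/- bar.

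Around the linker on which Fam20b acts, 3 transferases that extend it, the phosphatase and 1 donor enzyme were higher, and a xylosyltransferase that starts it was lower. Of 8 linker genes, 5 were higher, 1 was lower and 2 did not pass at an adjusted p under 0.05 by edgeR, with a median log2 difference of 0.58, beside 23.7% higher and 21% lower and a median of 0.01 over all genes tested. Xylt1, the xylosyltransferase that attaches the first sugar to the core protein, was at 386, 443, 336 and 466 CPM in WT and at 248, 242, 194 and 189 CPM in Cxcr2-/- mice 1 to 4. All 4 Cxcr2-/- mice lay under the WT range, beside 41.6% of all genes tested without overlap in either direction. The log2 difference was -0.90 (standard error 0.13, adjusted p = 0.000135 by edgeR). Its paralog Xylt2 was at 2.49 ± 0.611 and 2.16 ± 0.585 CPM and did not pass (adjusted p = 0.567 by edgeR).

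The galactosyltransferases and the glucuronosyltransferase that extend the linker rose together. B4galt7, which adds the first galactose, went from 6.94 ± 0.993 to 10.9 ± 1.02 CPM (log2 difference 0.65, adjusted p = 0.00246 by edgeR). B3galt6, which adds the next, went from 3.49 ± 0.503 to 5.66 ± 1.32 CPM (0.70, adjusted p = 0.0109), and B3gat3, which adds the glucuronic acid, from 23.3 ± 1.63 to 33.9 ± 5.97 CPM (0.54, adjusted p = 0.00299, both by edgeR). For each of these 3 genes all Cxcr2-/- mice were above all WT mice. Groups without overlap, in either direction, were found for 41.6% of all genes tested.

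Pxylp1, the phosphatase that removes the phosphate set by Fam20B, rose as well, by 0.89 on the log2 scale beside 0.34 for Fam20b. It was at 35.8, 35.2, 35.2 and 37.2 CPM in WT and at 75.2, 69.0, 60.01 and 61.5 CPM in Cxcr2-/- mice 1 to 4. The groups were far apart relative to their spread, with a standard error of 0.09 and an adjusted p of 9.64e-06 by edgeR. Whether its change differs from that of Fam20b was not tested. Ugdh, which makes the UDP-glucuronic acid donor, went from 66.8 ± 4.44 to 102.5 ± 11.1 CPM (log2 difference 0.62, adjusted p = 0.000233), while Uxs1, which turns that donor into UDP-xylose, was at 10.5 ± 1.16 and 11.6 ± 0.761 CPM and did not pass (adjusted p = 0.365, both by edgeR).

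Of 10 genes listed with the chain polymerases, 1 was higher, 1 was lower and 8 did not pass, with a median log2 difference of -0.02. This stood beside 23.7% higher and 21% lower over all genes tested. Chsy1, a chondroitin polymerase and the most expressed of the list in WT, fell from 259 ± 22.8 to 149 ± 6.62 CPM (log2 difference -0.80, adjusted p = 2.44e-05 by edgeR). The 1 higher gene was Extl2, a transferase that can add N-acetylhexosamine to the linker itself. It rose from 6.49 ± 0.564 to 10.2 ± 1.27 CPM (0.66, adjusted p = 0.00178 by edgeR).

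Of 13 genes that sulfate or epimerize the chains, 11 were tested, 1 was higher and 4 were lower, with a median of -0.18, beside the same 23.7% and 21% over all genes. For this list the number that passed was 4 to 6 when each library was left out in turn. The most expressed was Ndst1, which removes acetyl groups and sulfates heparan chains, at 688 ± 109.9 and 463 ± 63.0 CPM with a log2 difference of -0.57 (adjusted p = 0.00448 by edgeR), although the groups overlapped. Chst3, a chondroitin sulfotransferase, fell from 2.79 ± 1.20 to 1.08 ± 0.438 CPM (log2 difference -1.36, adjusted p = 0.0115 by edgeR), also with overlap. Chst11 and Chst15 were lower with log2 differences of -0.46 and -0.40, and Chst12 was higher with 0.50, all short of 1.5-fold.

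Among proteoglycan core proteins, to which these chains are attached, 7 of 11 were tested, 2 were higher and 3 lower, with a median log2 difference of -0.49. Over all genes tested, 23.7% were higher and 21% lower. Srgn, serglycin, was at 1275, 1024, 1300 and 1109 CPM in WT and at 393, 399, 587 and 567 CPM in Cxcr2-/- mice 1 to 4. The groups did not overlap, as for 41.6% of all genes tested, and the log2 difference was -1.28 (standard error 0.15, adjusted p = 3.04e-05 by edgeR). Agrn, the heparan sulfate proteoglycan agrin, fell from 179 ± 36.1 to 60.8 ± 13.2 CPM (-1.56, adjusted p = 1.48e-05), and Sdc4, a membrane syndecan, from 1.64 ± 0.554 to 0.452 ± 0.274 CPM (-1.85, adjusted p = 0.00450, both by edgeR). Sdc4 was near the floor, with 37 to 108 counts per library in WT and 4 to 28 in Cxcr2-/- mice.

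Gpc1, the membrane-anchored glypican, moved the other way. It was at 79.1, 66.7, 66.3 and 68.1 CPM in WT and at 199, 168, 134 and 115 CPM in Cxcr2-/- mice 1 to 4, with a log2 difference of 1.13 (standard error 0.15, adjusted p = 6.49e-05 by edgeR). Vcan, the large matrix proteoglycan versican, passed with a log2 difference of 2.43 (adjusted p = 0.0141 by edgeR), but it was at 3.11, 1.60, 23.2 and 29.02 CPM in Cxcr2-/- mice 1 to 4 against 1.91 to 3.92 CPM in WT. Only Cxcr2-/- mice 3 and 4 lay above the WT range, and without mouse 4 the log2 difference was 1.81. The same 2 mice had the highest sums of erythroid markers, 11.7 and 12.1 CPM, against 1.63 to 4.60 CPM in the other libraries. They were also the highest for Mpo and for the eosinophil genes Epx and Prg2. Siglecf and Ccr3, of the same list as Epx, were under the WT range in all Cxcr2-/- mice. Within the Cxcr2-/- group their B cell sums were the highest, 46.0 and 58.2 CPM, and their T and NK cell sums the lowest. The part of any of these in the Vcan value was not tested.

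**Figure D3:**
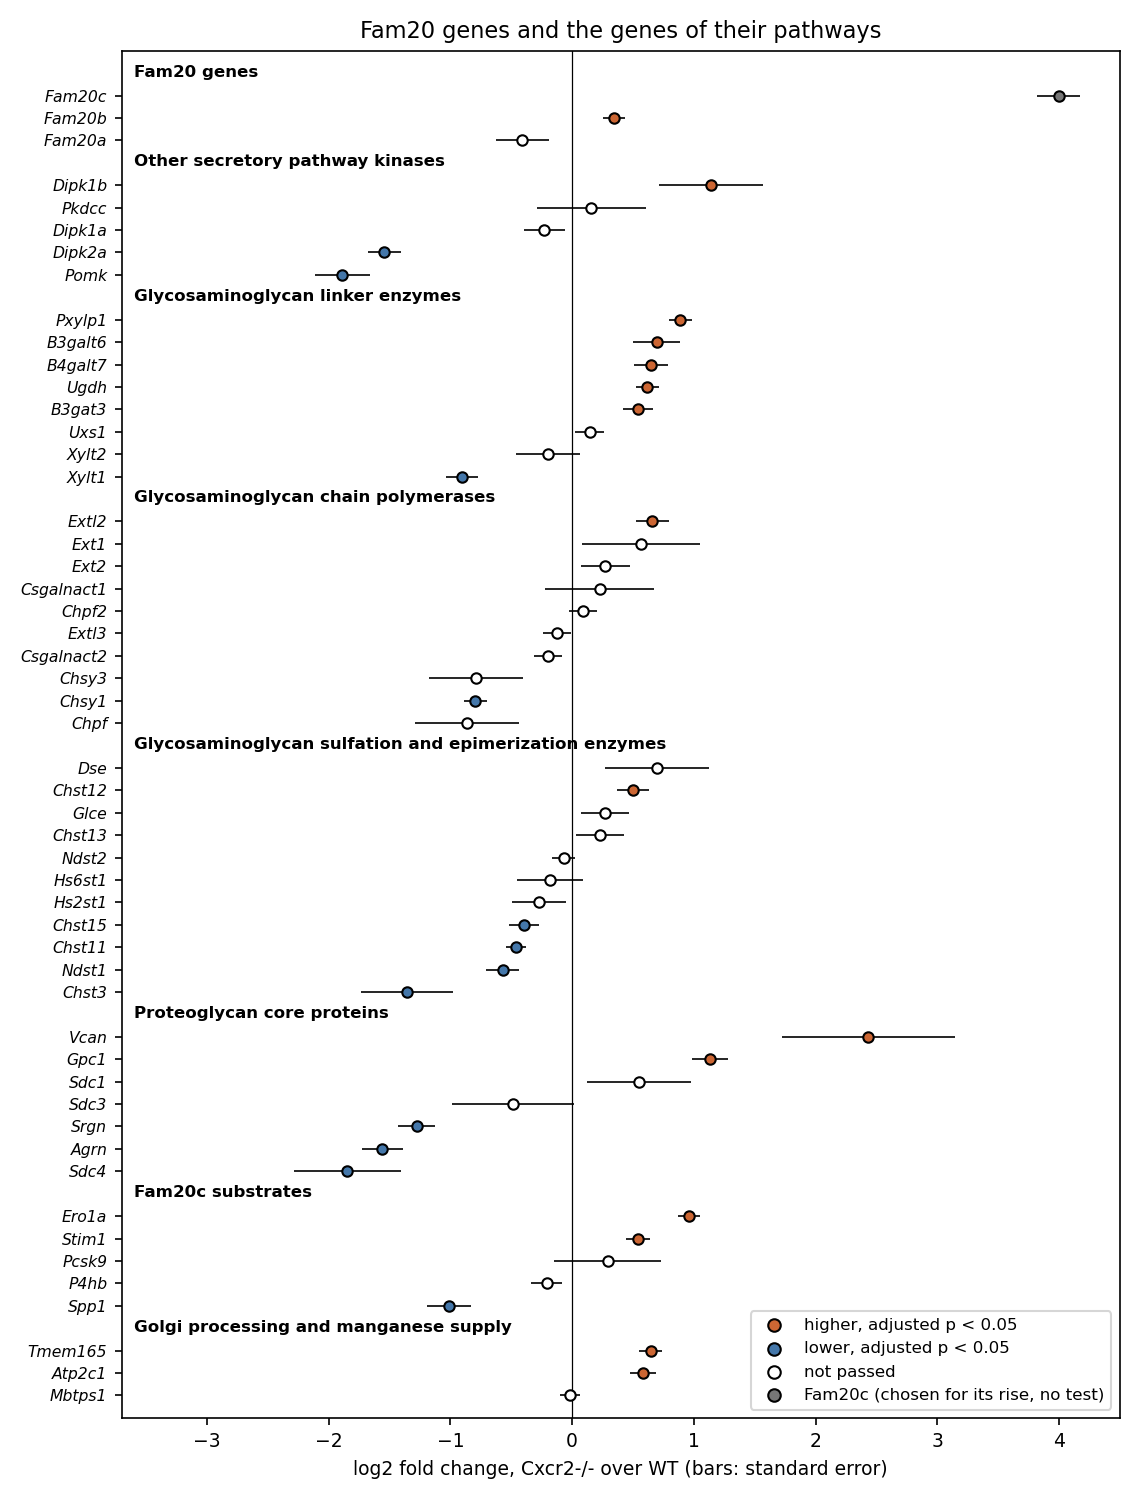
Log2 difference of Cxcr2-/- over WT neutrophils for the Fam20 genes and each tested gene of 7 related lists, with bars of 1 standard error, orange for higher and blue for lower at an adjusted p under 0.05 by edgeR and white where the test was not passed. In the linker list Xylt1 lies at -0.90 while 5 genes lie between 0.54 and 0.89, and Fam20c in grey lies at 4.0 with no test.

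Among other kinases of the secretory pathway, changes went in both directions, and the list was not tested as a set. Of 10 listed, 5 were tested, 1 was higher and 2 were lower, with a median log2 difference of -0.23. The shares over all genes tested were 23.7% higher and 21% lower. Fjx1, Gask1a, Gask1b, Dipk1c and Dipk2b were too low to test. Pomk, the kinase that phosphorylates mannose on dystroglycan, was at 8.40, 7.11, 9.35 and 10.2 CPM in WT and at 1.57, 1.94, 3.20 and 2.75 CPM in Cxcr2-/- mice 1 to 4, a log2 difference of -1.89 (standard error 0.22, adjusted p = 2.86e-05 by edgeR). Dipk2a, a divergent family member that is secreted, fell from 24.1 ± 3.22 to 8.29 ± 1.15 CPM (-1.54, adjusted p = 2.34e-06 by edgeR). Both fell, opposite to Fam20c, and without overlap between the groups, which was true of 41.6% of all genes tested.

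Dipk1b, a relative with little known function, was at 0.541 ± 0.308 and 1.20 ± 0.484 CPM and passed narrowly (log2 difference 1.14, adjusted p = 0.0450 by edgeR). It missed the threshold without WT mouse 1, 2 or 4 or without Cxcr2-/- mouse 1 or 2, with an adjusted p of up to 0.151 by edgeR, reached without Cxcr2-/- mouse 1, its highest library. It also missed it with library totals (0.0743) and upper-quartile scaling (0.0696). Dipk1a, another family member, was at 19.1 ± 2.91 and 16.3 ± 3.65 CPM and did not pass (adjusted p = 0.289 by edgeR).

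Most classic targets of Fam20C were not expressed. Of 16 substrate genes listed, 11 could not be tested, and the bone and dentin genes Ibsp, Dmp1, Dspp and Mepe and the enamel genes Enam and Ambn had 0 counts in all 8 libraries. Amelx and Fgf23 had at most 3 and 6 counts in a library. Of the 5 that were tested, 2 were higher, 1 was lower and 2 did not pass, with a median log2 difference of 0.29. Among all genes tested, 23.7% were higher and 21% lower. RNA levels say nothing of whether these proteins were phosphorylated.

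Ero1a, an oxidase of the endoplasmic reticulum and a Fam20C substrate, was at 63.4, 68.3, 64.2 and 63.9 CPM in WT and at 129, 139, 110.0 and 127 CPM in Cxcr2-/- mice 1 to 4. The groups did not overlap, as for 41.6% of all genes tested, and the log2 difference was 0.96 (standard error 0.09, adjusted p = 4.61e-06 by edgeR). Stim1, the calcium sensor of the endoplasmic reticulum, rose from 97.2 ± 1.83 to 142 ± 18.1 CPM (0.54, adjusted p = 0.000716), and Spp1, osteopontin, fell from 9.38 ± 1.21 to 4.64 ± 1.12 CPM (-1.01, adjusted p = 0.000614, both by edgeR). P4hb, protein disulfide isomerase and the most expressed of the list in WT, was at 122 ± 10.2 and 105 ± 19.9 CPM and did not pass (adjusted p = 0.210 by edgeR).

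Fam20C is released from the membrane by the protease Mbtps1 and needs manganese in the Golgi. Mbtps1 was at 42.2 ± 2.58 and 41.7 ± 2.35 CPM, with a log2 difference of -0.02 and an interval of 2 standard errors on either side from -0.19 to 0.15 (adjusted p = 0.882 by edgeR). Atp2c1, the Golgi calcium and manganese pump, rose from 199 ± 7.74 to 297 ± 38.4 CPM (log2 difference 0.58, adjusted p = 0.000620 by edgeR). Tmem165, a Golgi manganese transporter, rose from 44.3 ± 2.64 to 69.2 ± 6.22 CPM (0.64, adjusted p = 0.000111 by edgeR). Over all 7 lists, 49 of 71 genes were tested, and 14 were higher, 12 lower and 23 did not pass, shares near the 23.7% higher and 21% lower of all genes tested.

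Among the 6 tested neighbours of Fam20c, the nearest also rose. It was Gm5294, an unnamed gene model, which lay on the same strand with 10003 bases between the gene bodies, on chromosome 5 from 138820080 to 138821619. It was at 0.376, 0.221, 0.374 and 0.492 CPM in WT and at 3.34, 2.08, 2.95 and 1.48 CPM in Cxcr2-/- mice 1 to 4. Its log2 difference was 2.76 (standard error 0.34, adjusted p = 3.80e-05 by edgeR), and its order over the Cxcr2-/- mice was that of Fam20c. Further out, Dnaaf5, a dynein assembly factor, did not pass (log2 difference 0.29, adjusted p = 0.206), and Sun1, a nuclear envelope protein, was higher by 0.68 (adjusted p = 0.000888, both by edgeR). On the other side A430033K04Rik was higher by 1.0, Zfp68 was lower with -0.55 and Gm15497 lower with -1.20. The neighbours that passed thus lay in both directions, beside 23.7% higher and 21% lower over all genes tested. A430033K04Rik, whose adjusted p was 0.0342 by edgeR, missed the threshold without WT mouse 1, 3 or 4 or without Cxcr2-/- mouse 2 or 3 (up to 0.0818), and with library totals (0.0663) or upper-quartile scaling (0.0582).

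Prkar1a, a regulatory subunit of protein kinase A whose end lies 93 bases from Fam20a on the opposite strand, was at 232 to 266 CPM in all Cxcr2-/- and at 242 to 261 CPM in all WT libraries, with a log2 difference of -0.02 (adjusted p = 0.845 by edgeR). Of the other 5 neighbours of Fam20a, Wipi1, an autophagy protein, was higher by 0.86 and Abca9, a lipid transporter, lower with -1.08, and the others did not pass. Of the 6 neighbours of Fam20b, Ralgps2, a guanine nucleotide exchange factor, was lower (log2 difference -1.33, adjusted p = 0.0233 by edgeR), and this was lost without WT mouse 1 (adjusted p = 0.0840 by edgeR), WT mouse 3 or Cxcr2-/- mouse 2. The nearest, Tor3a at 4176 bases, did not pass (adjusted p = 0.370 by edgeR). For the neighbours of both genes, the shares over all genes tested were 23.7% higher and 21% lower.

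Likeness to each Fam20 gene was measured as the root mean square difference of log2 CPM, after taking each gene's own mean away, over the 8 libraries among 9517 protein-coding genes. Because the profiles were chosen on the same libraries, these genes are named with no test. Nearest to Fam20c were Prok2, a secreted chemokine-like peptide (difference 0.26), Gnb5, a G protein beta subunit (0.26), and Ggt1, a glutathione-cleaving enzyme (0.34), followed by Fignl2 (0.49) and Npl (0.69). Prok2 was at 19.4, 11.3, 12.2 and 13.6 CPM in WT and at 179, 174, 211 and 176 CPM in Cxcr2-/- mice 1 to 4. Gnb5 was at 0.543 to 1.08 CPM in WT and at 11.5 to 12.2 CPM in Cxcr2-/- mice. Within the Cxcr2-/- group these genes varied less than Fam20c, and none of the 5 was highest in mouse 1.

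Nearest to Fam20b were Bace1, a membrane protease (difference 0.03), Atp8a1, a phospholipid flippase (0.05), Dync1i2, a dynein chain (0.05), Ndufs1, a mitochondrial complex I subunit (0.05), and Trappc11, a tethering factor of the secretory pathway (0.05). Bace1 was at 12.1 to 13.8 CPM in WT and at 15.5 to 17.7 CPM in Cxcr2-/- mice. Nearest to Fam20a were Ypel1 (0.08), Plpp5 (0.11), Dnah17 (0.11), Adamtsl4 (0.11) and Pfn2 (0.11). All 5 were lowest among the WT libraries in WT mouse 1 and highest in WT mouse 4, as Fam20a was.

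**Figure D4:**
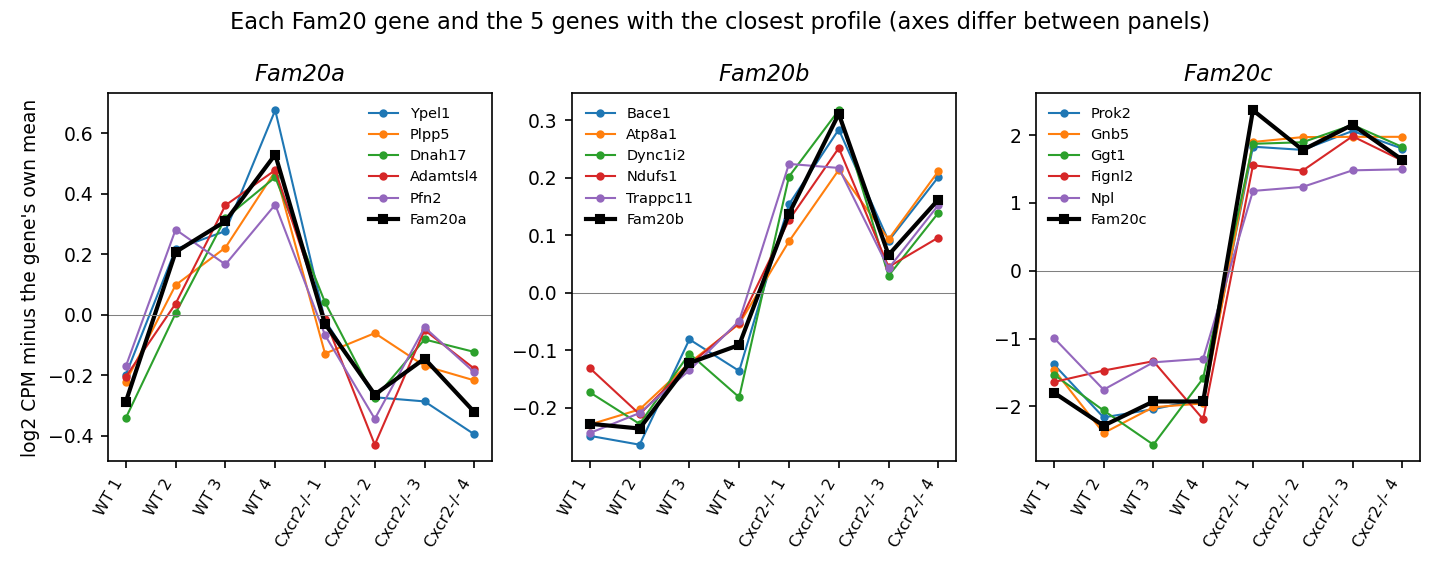
Log2 CPM of each Fam20 gene (black squares) and its 5 nearest genes minus each gene's own mean, for the 8 libraries, with axes that differ between panels and lines that only join the points of a gene. The panel of Fam20c shows a step between the genotypes, that of Fam20b a smaller step, and that of Fam20a a spread within WT, from WT mouse 1 at the bottom to WT mouse 4 at the top.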

How the data were processed

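RNA-seq was made from sorted spleen neutrophils of 8 mice, with ribosomal RNA depletion and directional libraries. The authors trimmed the reads, aligned them with STAR to mm10 and counted them per gene with HTSeq, and they deposited a whole-number count for each gene and mouse with no normalization. The strand setting of the counting is not given in the sources used here. Reads on no gene were 26.7 to 41.5% of each file and were left out with the other summary rows.

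Names, positions and exon lengths came from GENCODE M21 (GRCm38), which matched 52081 of 55414 identifiers. Of these, 52044 carry a newer version than in M21, so exon lengths are approximate, and 1.43% of counts lay on unmatched identifiers. Groups came from the genotype labels. Counts were tested with edgeR 4.0.16 (R 4.3.3; TMM, filterByExpr, quasi-likelihood, Benjamini-Hochberg), and DESeq2 1.42.0 was an alternative, with other scalings, filters, a replicate block and each library left out. The fit was tested on simulated data. Calls over all genes needed an adjusted p under 0.05 and 1.5-fold, and named genes an adjusted p under 0.05. Of all genes, 31.3% were called. Named were the Fam20 genes, Cxcr2, up to 5 genes past both limits per list by size with the most expressed, the 3 nearest tested genes on each side, and the 5 most similar profiles (average log2 CPM of at least 1). Other list members in the text were picked with their values in view. The members and lists were chosen with earlier results of these data known. Each library came from another mouse, so p-values measure the spread between mice.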

Additional observations from a re-analysis of the deposited data

Results flagged for a closer look

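Of 120 groups of 4 libraries checked for the genes named, 9 had 1 library whose gap to the nearest other, divided by the range of the group, passed Dixon's critical value for groups of that size. Chance gives such a gap in about 1 of 20 groups, and none of the 9 belonged to a Fam20 gene. Among Cxcr2-/- libraries, Dipk1b was 1.92 CPM in mouse 1 against 0.890 to 1.05 in the others (ratio 0.843). Prok2 was 211 CPM in mouse 3 against 174 to 179 (ratio 0.844), and Gnb5 11.5 CPM in mouse 1 against 12.1 to 12.2 (ratio 0.946). Abl2 was 16.3 CPM in mouse 4 against 15.5 to 15.6 (ratio 0.850). Among WT libraries, Gpc1 was 79.1 CPM in mouse 1 against 66.3 to 68.1 (ratio 0.855), and Gm11685 0.0289 CPM in mouse 4 against 0.243 to 0.267 (ratio 0.899). WT mouse 2 was the highest for Ero1a with 68.3 CPM against 63.4 to 64.2 (ratio 0.843), for Zfp68 with 38.9 CPM against 34.7 to 35.4 (ratio 0.842) and for Dnaaf5 with 3.20 CPM against 2.72 to 2.78 (ratio 0.873).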

How the results depend on the processing

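Fam20c had a log2 fold change of 3.88 to 3.98 under the other scalings, filters, tool and block, and of 3.86 to 4.09 with each library left out. Fam20b kept its direction, from 0.30 to 0.37 with each library left out, and its adjusted p passed in every setting but upper-quartile scaling (log2 fold change 0.2212, adjusted p = 0.0635 by edgeR), where the cause was not tested. Fam20a did not pass in any setting, with -0.55 to -0.29 over libraries left out and adjusted p of 0.0504 to 0.362 by edgeR. Prkar1a changed sign, at 0.0001 without WT replicate 1, and ranged from -0.0566 to 0.0001 over libraries left out. Calls over all genes were 4637 to 5527, and the share of them that was higher fell from 50% to 40.7% with library totals and 38.0% with upper-quartile scaling (1975 higher, 3227 lower). The replicate numbers did not pair the mice: same-numbered libraries correlated by 0.116, -0.188, 0.158 and -0.262 in their deviations from the group means. With the replicate number as a block, Fam20b was at 0.34 (adjusted p = 0.0202 by edgeR), Fam20a at -0.39 and Fam20c at 3.98, and 4988 genes were called. Over all settings and the single genes named other than the Fam20 genes, 38 values lost and 18 gained their side of the threshold with the direction kept. With the block Vcan was at 1.71 (adjusted p = 0.107) and Dipk1b at 1.22 (adjusted p = 0.0567 by edgeR). The counts of Fam20a, 65 to 125 per library, limit the precision of its value.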

Other observations

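Several chain-building genes were uneven among the Cxcr2-/- mice, a pattern picked out after the values were seen. Ext1, a heparan sulfate polymerase, was at 0.910, 1.22, 4.02 and 5.10 CPM in Cxcr2-/- mice 1 to 4, against 1.21 to 2.89 CPM in WT. Dse, which epimerizes dermatan chains, was at 1.31, 1.94, 5.13 and 5.86 CPM in the same mice, against 1.21 to 2.99 CPM in WT. Ext2, the partner of Ext1, was at 5.41, 5.20, 8.23 and 9.16 CPM, against 5.09 to 6.60 CPM in WT. Mice 3 and 4, the highest for these 3 genes, were also the highest for Vcan. Chst13, a chondroitin sulfotransferase, was in the opposite order, at 26.2, 18.4, 14.0 and 12.8 CPM against 13.5 to 17.4 CPM in WT. Neither Ext1, Ext2, Dse nor Chst13 passed an adjusted p of 0.05 between the genotypes by edgeR (0.373, 0.291, 0.208 and 0.363 in that order).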
